A study of Rattus norvegicus with 72 samples.

Results

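Creb1 and Atf2 encode transcription factors of the bZIP class that bind the cAMP response element (CRE), a short palindrome in the promoters of many genes that respond to neuronal activity. These 2 genes were picked by their names from the table of normalized values, which holds 145 genes. Microfluidic qRT-PCR had been run on 72 samples taken from 40 male Sprague Dawley rats, with 1 sample per animal and brain region. The regions were the dorsal vagal complex (DVC), the brainstem area that receives visceral input, and the amygdala's central nucleus (CeA), a forebrain nucleus tied to autonomic and emotional responses. Animals were killed at Zeitgeber time 3, 5 or 9 (ZT3, ZT5, ZT9, in hours after lights on), which gave 7, 17 and 15 DVC samples and 7, 14 and 12 CeA samples in that order. All groups shared 1 regime: young rats housed singly, fed an alcohol-free Lieber-DeCarli liquid diet with maltose-dextrin, and held to the caloric intake of an alcohol-fed partner, so no group was fed freely and none received alcohol or another treatment. Both regions were taken from 32 animals. Each sample was a bilateral tissue punch with a mixture of cells, so fewer cells of a type and less RNA per cell cannot be told apart.

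CREB1 is held at CREs and becomes active when kinases downstream of cAMP, calcium or growth factors phosphorylate it, which recruits the co-activator CREB-binding protein (encoded by Crebbp). In neurons it is best known for switching on early response genes and for its part in lasting synaptic change. ATF2 binds the same kind of element as a homodimer or with Jun proteins and is activated by the stress kinases JNK and p38. For both factors activity is set largely by phosphorylation of the protein, which a transcript level does not measure.

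The sequences that define what was measured are the primers of the 2 assays, as listed by the study, and they are shown because every value here is the amount of cDNA between a primer pair.
Creb1 forward primer: ctagtgcccagcaaccaagt
Creb1 reverse primer: ggaggacgccataacaactc
Atf2 forward primer: ctggtggctgaaaggaacat
Atf2 reverse primer: tcccaagttgccatctagtgt

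In the RefSeq annotation of the rat genome (build GRCr8) Creb1 lies on the plus strand at chr9:73397333-73466339 and Atf2 on the minus strand at chr3:79125814-79202896. Both gene identifiers were matched in RefSeq's promoter set, Creb1 with 2 start sites and Atf2 with 1. The promoter windows run from 250 bases before to 50 bases after a start site. The CRE itself, TGACGTCA, was in neither gene's windows and in 1.83% of all 33469 rat promoter windows. Its core, TGACG on either strand (which every full CRE also contains), was in 21.2% of them. The upstream Creb1 window, at chr9:73397259-73397558, held 3 such cores, a number reached or passed by 1.11% of windows. The first 2 began 80 and 59 bases before the start site and the other 8 bases after it. That start site is the promoter set's and lies inside the gene span given above, as do all 3 cores. The downstream Creb1 window and the Atf2 window held none, which says only that these letters are absent there. The 3 matches are printed with 10 bases on each side and the core in capitals, since they are where the promoters of the 2 genes differ in this motif.
Creb1 upstream window, chr9:73397419-73397443: tgttggtgagTGACGcggcggaggt
Creb1 upstream window, chr9:73397440-73397464: aggtgtagttTGACGcggtgtgtta
Creb1 upstream window, chr9:73397507-73397531: acgaaagcagTGACGgaggagcttg

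Values are cycle thresholds (C_T) after the authors' quantile normalization, where 1 cycle fewer stands for about 2-fold more cDNA. Changes are given as −ΔΔC_T, the value subtracted from the region's mean at ZT5, so a positive number means higher expression. Atf2 was measured in all 39 DVC samples and in 31 of 33 CeA samples, and Creb1 in 37 and 29. The 2 CeA samples without Atf2, 1 at ZT5 and 1 at ZT9, had 78 and 74 failed reactions of 145 and lacked Creb1 too, whereas the other samples had at most 9 failures. Creb1 also failed in 1 DVC sample at ZT5, in 1 at ZT9 and in 2 of the 7 CeA samples at ZT3. The mean of the samples' median deposited C_T was 18.07, 18.68 and 18.18 cycles at ZT3, ZT5 and ZT9 in the DVC and 19.00, 19.68 and 19.53 cycles in the CeA, so ZT5 had the highest median C_T in each region, and the weight of this in the time course was examined with other scalings below.

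The assays sat far apart, Creb1 near the high end of the C_T range and Atf2 in its lower part. Creb1 had a mean normalized C_T of 25.12 ± 0.86 (SD, n = 37) in the DVC and 25.66 ± 0.76 (SD, n = 29) in the CeA, and in each region only 4 genes had a higher mean C_T. Atf2 had 17.33 ± 0.41 (SD, n = 39) and 17.89 ± 0.34 (SD, n = 31), and a higher mean was held by 83.4% of DVC genes and 78.9% of CeA genes. The efficiency of the assays is not known, so this gap is not a ratio of transcripts. Within time points Creb1 scattered with a pooled SD of 0.79 cycles (DVC) and 0.66 cycles (CeA), above the median gene at 0.52 in both, and Atf2 with 0.42 and 0.35, below it.

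Because quantile normalization replaces each value by the mean for its rank in the sample, a gene near the top of the C_T range moves in steps. Creb1 held rank 1 to 16 from the highest C_T in the DVC and rank 1 to 11 in the CeA. The normalized C_T was 27.12 at rank 1 and between 26.23 and 26.25 at rank 2, a step of 0.89 cycles. Creb1 took rank 1 in 1 DVC sample and 4 CeA samples, all of them at ZT5. Those 4 CeA samples share the value of 27.12, while their deposited C_T ran from 26.48 to 27.28. Atf2 ranked no higher than 95 in the DVC and 90 in the CeA, where neighbouring ranks lie close together.

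The time course was asked for each gene and region. Creb1 in the DVC had normalized C_T values at ZT3 from 24.26 over a median of 25.00 to 26.25. At ZT5 they ran from 23.65 over 25.77 to 27.12, and at ZT9 from 23.78 over 24.68 to 25.78. The groups overlapped, although 13 of the 14 ZT9 samples had a lower C_T than the ZT5 median and, counted by rank so that a shared rank is a tie, 4 of the 16 ZT5 samples lay above every ZT9 sample. In the CeA the 5 values at ZT3 were 25.18, 25.46, 25.78, 25.78 and 26.23. At ZT5 they ran from 25.19 over 25.77 to 27.12, and at ZT9 from 24.22 over 24.97 to 26.24. Counted by rank, 6 of the 11 ZT9 samples lay below every ZT5 sample and 4 of the 13 ZT5 samples above every ZT9 sample.

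In the CeA Creb1 was higher at ZT9 than at ZT5 by 0.92 ± 0.26 cycles on the −ΔΔC_T scale (SE), or 1.89-fold with a 95% interval from 1.31 to 2.72, and the limma adjusted p was 0.0356. That contrast called 4.93% of all genes tested. The call was near its limit: with 10 of the 33 samples, each left out in turn, the limma adjusted p passed 0.05 and reached 0.0826, and on the C_T values as deposited the difference was 0.88 with an adjusted p of 0.393. In the DVC the difference was 0.84 ± 0.28 cycles (SE), or 1.79-fold with an interval from 1.21 to 2.64, and its limma adjusted p of 0.0529 missed the threshold in a contrast that called 7.59% of 145 genes. Permutation of the single gene's samples gave p = 0.00872 in the DVC and p = 0.00417 in the CeA (2-sided, not adjusted over genes).

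Over the 3 time points together the limma F-test gave Creb1 an adjusted p of 0.114 in the DVC, where 10.3% of genes passed, and 0.0783 in the CeA, where 3.52% passed. Without adjustment the limma p was 0.0163 and 0.00496, a threshold that 21.4% and 14.8% of all genes passed, and permutation of the one-way F of this gene gave p = 0.0239 and p = 0.00840. Some other scalings moved the DVC result past the threshold: the limma adjusted p was 0.00493 after median centring, 1.86e-05 on C_T values as deposited and 0.0153 with each sample's median as a covariate. The DVC difference between ZT9 and ZT5 was then 1.21, 1.62 and 1.03 cycles. Other settings left it above: with quantile normalization per region the limma adjusted p was 0.113 and the difference 0.84. With the set of animals (numbered below S166 or from S166 up) as a factor they were 0.279 and 0.61. In the animals from S166 up alone they were 0.736 and 0.52. On the deposited values the median of all genes was itself higher at ZT9 than at ZT5, by 0.49 cycles in the DVC and 0.14 in the CeA. At ZT3 Creb1 was 0.42 ± 0.34 cycles (SE) above ZT5 in the DVC, and for the CeA the value was 0.39 ± 0.33. The limma adjusted p-values were 0.641 and 0.715 in contrasts that called 5.52% and 1.41% of genes. After median centring the DVC difference at ZT3 was 1.16 cycles with an adjusted p of 0.0450, where the median of all genes was 0.14 higher.

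Atf2 differences between time points were smaller and none passed a test over all animals of a region. In the DVC its normalized C_T ran from 16.82 over a median of 17.12 to 18.25 at ZT3. It ran from 16.83 over 17.28 to 18.50 at ZT5 and from 16.75 over 17.29 to 17.79 at ZT9. The 3 groups covered much the same range. In the CeA it ran from 17.55 over 17.91 to 18.31 at ZT3, from 17.41 over 17.89 to 18.37 at ZT5 and from 17.12 over 17.84 to 18.61 at ZT9, and again the groups overlapped. Over time points the adjusted p by limma's F-test was 0.897 for the DVC and 0.983 for the CeA. The ZT9 to ZT5 difference was 0.10 cycles in the DVC with a 95% interval from -0.21 to 0.41, and -0.02 in the CeA with an interval from -0.33 to 0.30. At ZT3 the differences were 0.01 cycles (-0.38 to 0.40) and -0.05 (-0.41 to 0.31). A change of more than about 0.41 cycles in either direction lay outside all 4 intervals, and a smaller one could not be told from none.

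**Figure D1:**
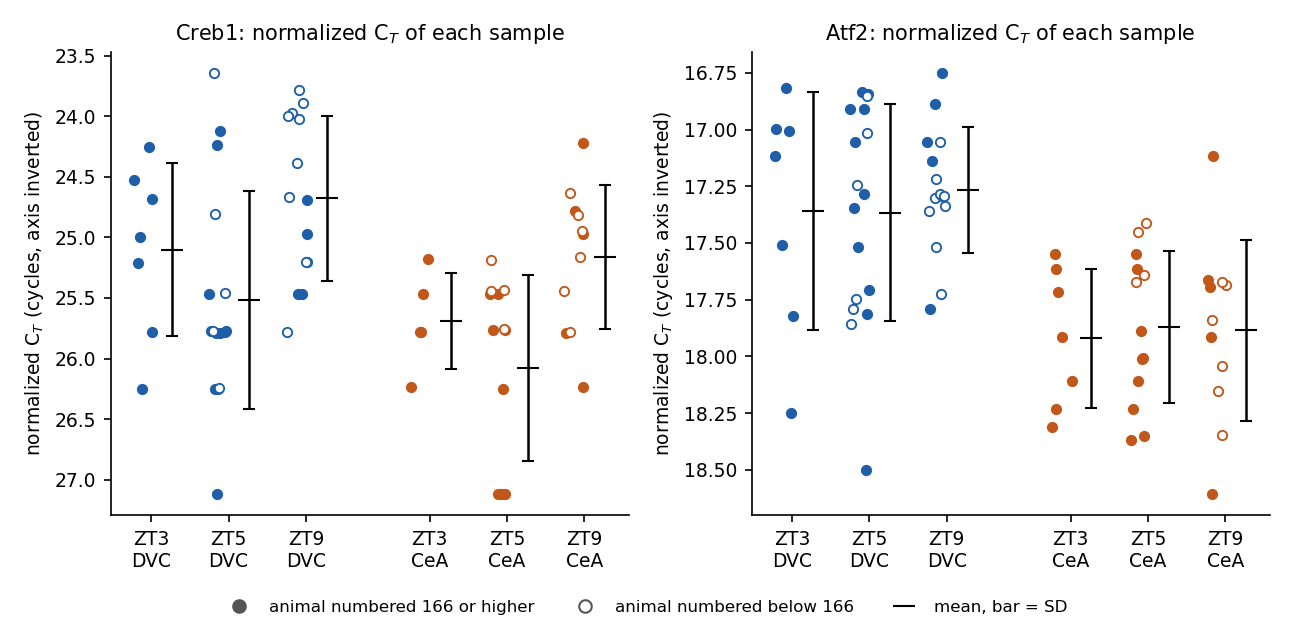
Normalized C_T (cycles, axis inverted so that higher expression is up) of each sample for Creb1 (left) and Atf2 (right) by region and time point. Filled points are animals from S166 up and open points lower-numbered animals, with the mean and SD in black. Creb1 values fall on discrete levels and 4 CeA samples at ZT5 share 27.12, while the Atf2 means differ between regions but within a region lie between 17.27 and 17.37 in the DVC and between 17.87 and 17.92 in the CeA.

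Whether the 2 time courses differ was tested on the difference between the genes within a sample, normalized C_T of Creb1 minus that of Atf2. In the CeA this difference was 7.84 ± 0.52 cycles at ZT3 (SD, n = 5), 8.21 ± 0.63 at ZT5 (SD, n = 13) and 7.28 ± 0.78 at ZT9 (SD, n = 11). It differed among time points, with p = 0.0101 by a permutation test of the one-way F. In the DVC it was 7.74 ± 0.97 (SD, n = 7), 8.18 ± 0.91 (SD, n = 16) and 7.45 ± 0.83 cycles (SD, n = 14), with p = 0.0949 by the same permutation test. On the C_T values as deposited, where any offset of a whole sample cancels in the difference, the DVC means were 7.52, 8.74 and 7.60 cycles and the permutation p was 5.50e-04, and in the CeA the p was 0.0178. The sample difference was thus largest at ZT5 in both regions on both kinds of values.

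**Figure D2:**
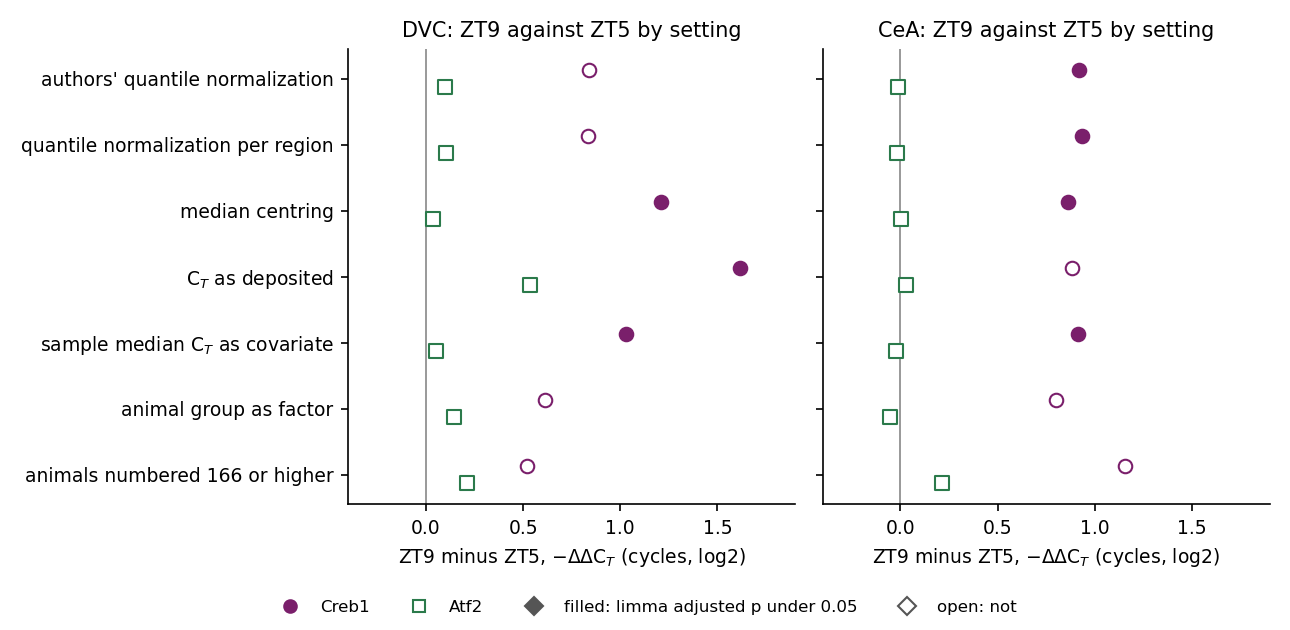
Difference between ZT9 and ZT5 on the −ΔΔC_T scale (cycles, log2) for Creb1 (circles) and Atf2 (squares) in the DVC (left) and CeA (right) under the authors' normalization and 6 other settings. Filled symbols have a limma adjusted p under 0.05. Creb1 lies between 0.52 and 1.62 in the DVC and between 0.80 and 1.15 in the CeA, and no Atf2 value passes.

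The regions were compared next. Atf2 was higher in the DVC than in the CeA by 0.56 ± 0.10 cycles (SE), or 1.47-fold with a 95% interval from 1.29 to 1.68, at a limma adjusted p of 4.10e-07. Creb1 was higher in the DVC by 0.54 ± 0.18 cycles (SE), or 1.45-fold with an interval from 1.14 to 1.85, at an adjusted p of 0.00509. Most genes of the table differ between these regions: 72.2% of 144 genes passed in this fit, 43.1% as higher in the DVC, and the difference of 78 genes was larger in size than that of Atf2. Within animals Atf2 was higher in the DVC in 26 of 30 rats, by 0.54 ± 0.44 cycles (SD), with a smallest difference of -0.44 and a largest of 1.47. Creb1 was higher in the DVC in 17 of 26 rats, by 0.42 ± 0.71 cycles (SD), from -0.80 to 1.54. Permutation by sign flips over animals gave p = 2.00e-05 for Atf2 and p = 0.00651 for Creb1.

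The regional difference of Creb1 depended on the scaling, and that of Atf2 passed under every alternative run. After median centring Creb1 differed by 0.07 cycles with a limma adjusted p of 0.721. The median of all genes is itself 0.13 cycles higher in the DVC on the normalized values and 1.13 cycles higher on the C_T values as deposited. At single time points Atf2 passed at each, with 0.56, 0.50 and 0.62 cycles at ZT3, ZT5 and ZT9 and limma adjusted p of 0.0273, 0.00248 and 7.05e-04. Of all genes 45.8%, 59.2% and 58.5% passed there. Creb1 had 0.59, 0.56 and 0.48 cycles with adjusted p of 0.257, 0.0658 and 0.156. A time course that differs between regions was not detected for either gene, with a limma adjusted p of 0.995 for the interaction for both. The interaction passed in 0 genes, 0.0%, after adjustment by limma and in 15, 10.6%, at an unadjusted p under 0.05.

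Ordered from the highest expression, the 6 group means of Creb1 ran from DVC ZT9 at 24.68 cycles over DVC ZT3 at 25.10, CeA ZT9 at 25.16, DVC ZT5 at 25.52 and CeA ZT3 at 25.69 to CeA ZT5 at 26.08. Each step between neighbours in that order, at most 0.42 cycles, was smaller than their pooled SD. For Atf2 the 3 DVC means, 17.27 at ZT9, 17.36 at ZT3 and 17.37 at ZT5, came before the 3 CeA means of 17.87 at ZT5, 17.88 at ZT9 and 17.92 at ZT3. Only the step from DVC ZT5 to CeA ZT5, 0.50 cycles against a pooled SD of 0.42, was larger than the spread. The Creb1 groups thus interleaved by region, with ZT9 first and ZT5 last in each, and the Atf2 groups were split by region.

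**Figure D3:**
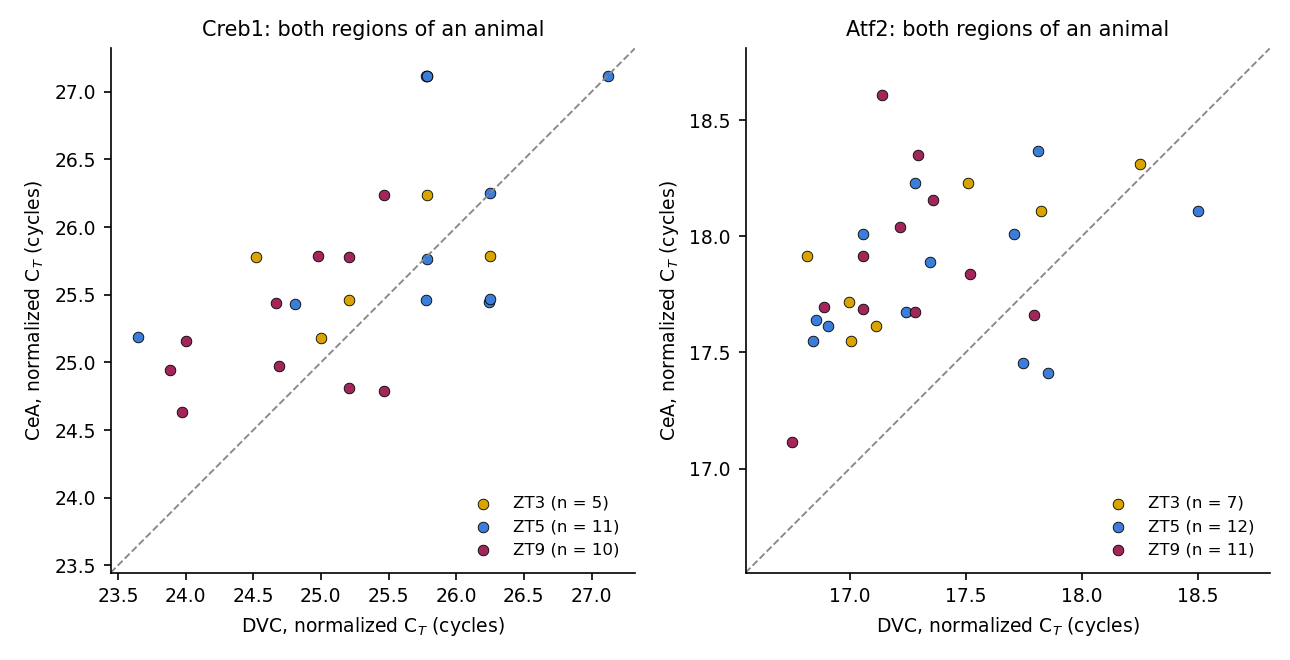
Normalized C_T (cycles) in the CeA against the DVC of the same animal for Creb1 (left, 26 animals) and Atf2 (right, 30 animals), coloured by time point. Points above the dashed line of equality have higher expression in the DVC, as in 17 animals for Creb1 and 26 for Atf2.

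Animals carry numbers from S103 to S262, and no ZT3 animal is numbered below S169, so ZT9 and ZT5 were also compared within the animals below S166 (the lower-numbered set) and from S166 up (the higher-numbered set). What the number stands for is not given in the labels. For Creb1 in the DVC, the lower-numbered set had a mean normalized C_T of 25.18 ± 1.01 at ZT5 (SD, n = 5) and 24.49 ± 0.69 at ZT9 (SD, n = 10). The higher-numbered set had 25.67 ± 0.86 (SD, n = 11) and 25.15 ± 0.38 (SD, n = 4). The −ΔΔC_T at ZT9 was 0.69 cycles in the lower-numbered set (p = 0.136, exact permutation test) and 0.52 in the other (p = 0.272, exact permutation test). In the CeA the means were 25.46 ± 0.23 at ZT5 (SD, n = 4) and 25.13 ± 0.42 at ZT9 (SD, n = 6) in the lower-numbered set. In the higher-numbered set they were 26.35 ± 0.76 (SD, n = 9) and 25.20 ± 0.81 (SD, n = 5). The difference was 0.33 cycles (p = 0.205, exact permutation test) and 1.15 (p = 0.0190, exact permutation test). All 4 Creb1 differences were positive, and 1 of the 4 passed its unadjusted test. All 5 samples in which Creb1 had the highest C_T of its sample came from the higher-numbered set.

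For Atf2 the same differences were 0.08 cycles (p = 0.603) and 0.21 (p = 0.442) in the DVC, lower-numbered set first, by exact permutation tests. In the CeA they were -0.41 in the lower-numbered set, where 4 ZT5 samples averaged 17.54 ± 0.13 (SD) and 6 ZT9 samples 17.96 ± 0.27 (SD), and 0.22 in the higher-numbered set. The exact permutation tests gave p = 0.0286 and p = 0.346. The difference between the sets of animals was tested with limma and passed in 0.0% of genes in either region. It was 0.63 ± 0.32 cycles for Atf2 in the CeA (SE, adjusted p of 0.606, limma) and 0.83 ± 0.52 for Creb1 in the CeA (SE, adjusted p of 0.606, limma). In the DVC it was -0.17 ± 0.60 for Creb1 and 0.13 ± 0.31 for Atf2 (SE).

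The genes were then compared across samples of a region, after removing the time point means. Creb1 and Atf2 had a Pearson r of -0.01 in the DVC (n = 37, permutation p = 0.976) and a Spearman rho of -0.06 (permutation p = 0.710). In the CeA r was 0.21 (n = 29, permutation p = 0.293) and rho 0.27 (permutation p = 0.171), and r was 0.04 without the 2 samples farthest from the median of Creb1. Without those 2 samples in the DVC r was -0.11. These p-values are unadjusted, and after Benjamini-Hochberg adjustment over the 143 and 140 genes set against Creb1 they were 0.990 and 0.747 by permutation. None of those genes passed after adjustment (0.0%), and 12.6% and 10.7% did so unadjusted. On C_T values as deposited, which share each sample's overall level, r was 0.53 for the DVC samples and 0.72 for the CeA samples.

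**Figure D4:**
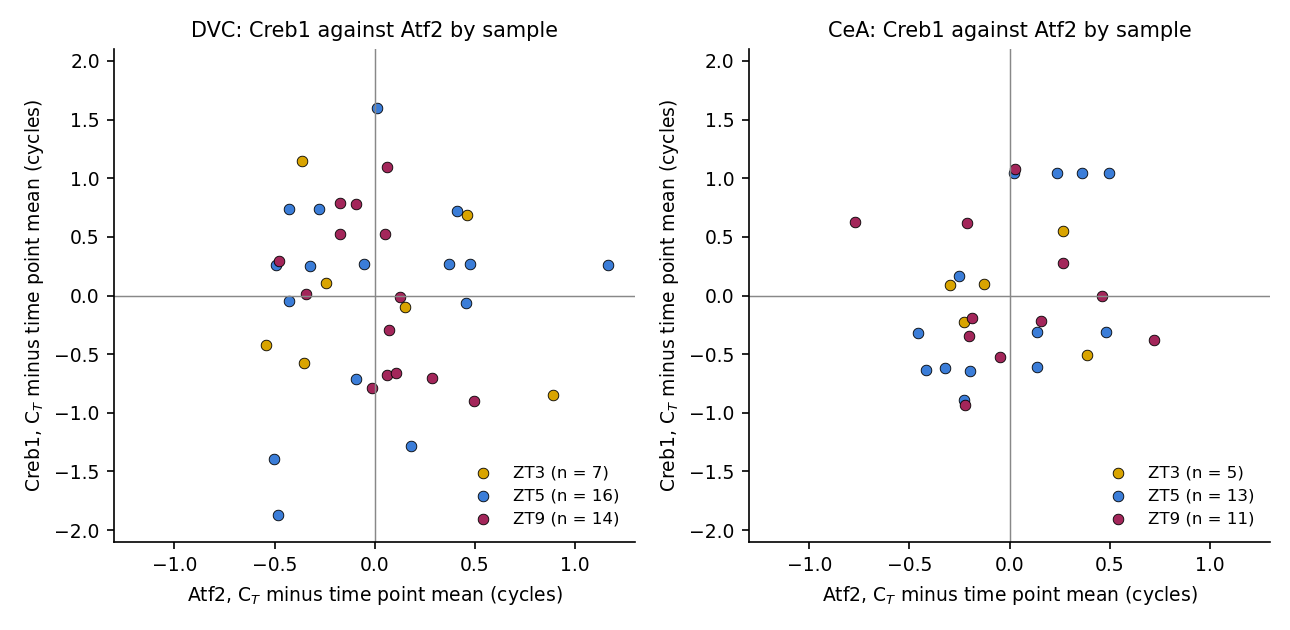
Creb1 against Atf2 in each sample of the DVC (left, 37 samples) and CeA (right, 29 samples), both as normalized C_T minus the mean of the time point (cycles), coloured by time point. The points show no clear slope, with a Pearson r of -0.01 and 0.21, and Creb1 spreads more widely than Atf2.

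Between the regions of an animal, deviations from the time point means had a Pearson r of 0.46 for Creb1 (n = 26 animals, permutation p = 0.0292) and 0.39 for Atf2 (n = 30, permutation p = 0.0291). Spearman's rho was 0.36 (permutation p = 0.0763) and 0.37 (permutation p = 0.0527). Over all genes the median r was 0.06, with 4 genes above Creb1 and 13 above Atf2. After adjustment over all genes the permutation p was 0.329 for both, and no gene passed (0.0%), with 14.1% past the threshold unadjusted. Without the 2 animals farthest from the DVC median r was 0.26 for Creb1 (permutation p = 0.206) and 0.29 for Atf2 (permutation p = 0.137). Leaving out the extremes narrows the range, which tends to lower r, so this does not tell how much those animals carried. Within the sets of animals r was 0.44 for Creb1 in the lower-numbered set (n = 9, exact permutation p = 0.139) and 0.22 in the higher-numbered set (n = 17, permutation p = 0.417). For Atf2 it was -0.21 in the lower-numbered set (n = 10, exact permutation p = 0.417) and 0.52 in the higher-numbered set (n = 20, permutation p = 0.0174).

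By the same measure, r over samples of a region with time point means removed, the genes most like Creb1 in the DVC were Dusp6, a phosphatase that inactivates ERK, at 0.58, Agtrap, an angiotensin receptor associated protein, at 0.42, and Jund, a bZIP factor of the AP-1 family, at 0.41 (n = 37). In the CeA they were the G protein regulator Rgs9 at 0.47 (n = 29), the receptor kinase Gprk6 at 0.46 (n = 26) and the vesicular GABA transporter Slc32a1 at 0.45 (n = 27). No gene was in both lists for Creb1, but lists of 3 out of 143 and 140 genes would rarely share one even if unrelated. This is therefore no result about the regions. For Atf2 the likeness was closer. In the DVC Rasa3, a Ras GTPase activating protein, had 0.77, Rasgrp1, a Ras exchange factor, 0.75, and Arrb1, a beta-arrestin, 0.71 (n = 39). In the CeA the genes near the top of the order included the GABA-A receptor subunit Gabrq at 0.70 (n = 25) and Rasgrp1 at 0.64 (n = 31). With all partners Atf2 had a median r of 0.04 (DVC) and 0.07 (CeA). All of these values share the samples' normalization.

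The pathway around the 2 factors was described with 19 genes: bZIP partners, the co-activator, kinases of the cAMP, ERK, Akt and JNK routes, phosphatases and CRE-driven early genes. Enough values for a test were present for all 19 in the DVC and for 18 in the CeA, where Fosl1 was too sparse. In the DVC 3 of 19 passed the limma F-test over time points, beside 10.3% of all genes, and all 3 were called higher at ZT9. In the CeA 1 of 18 passed, beside 3.52% of all genes. At ZT9 the median difference over the list was 0.12 cycles (DVC) and 0.11 cycles (CeA), beside 0.02 and -0.0036 over all genes.

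Nr4a2, an orphan nuclear receptor and early response gene with CREs in its promoter, was the list's member that passed in both regions. In the DVC it was higher than at ZT5 by 0.78 ± 0.17 cycles at ZT9 (SE, limma adjusted p of 0.00174) and by 0.87 ± 0.21 at ZT3 (SE, limma adjusted p of 0.00927). In the CeA it was higher by 1.16 ± 0.25 cycles at ZT9 (SE, limma adjusted p of 0.00681) and by 1.13 ± 0.29 at ZT3 (SE, limma adjusted p of 0.0253). Nr4a2 and Creb1 both had their lowest mean at ZT5 in both regions, although the ZT3 differences of Creb1 passed no test on the normalized values. That order is not particular to this pair, since Crebbp, Mapk3 and Ppp2r1a of the list also had their lowest mean at ZT5 in both regions. How many of all genes share it was not counted. Egr1, the other early response gene of the list, passed in neither region and was lowest at ZT5 in neither. Its differences from ZT5 in the DVC were -0.05 cycles at ZT3 and 0.55 at ZT9. In the CeA they were 0.17 at ZT3 and -0.14 at ZT9, and no contrast passed.

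Of the partners, Fosl1, an AP-1 protein that dimerizes with Jun factors, was higher in the DVC at ZT9 than at ZT5 by 1.52 ± 0.44 cycles (SE, limma adjusted p of 0.0189) and was measured in 29 of 39 samples. Ppp2r1a, the scaffold subunit of the phosphatase PP2A, was higher than at ZT5 in the DVC by 0.65 ± 0.17 cycles at ZT9 (SE, adjusted p of 0.00835) and by 0.74 ± 0.21 at ZT3 (SE, adjusted p of 0.0238, both limma). Crebbp, which encodes the co-activator that binds phosphorylated CREB1, missed the F-test in the CeA with an adjusted p of 0.0531, but its ZT9 contrast there passed at 0.67 ± 0.17 cycles (SE, limma adjusted p of 0.0253). Creb1 and Crebbp were thus both called higher at ZT9 than at ZT5 in the CeA, whereas in the DVC Crebbp differed by 0.02 ± 0.20 cycles (SE). Junb was 0.96 ± 0.32 cycles above ZT5 at ZT3 in the CeA (SE), with a limma adjusted p of 0.111.

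Between the regions 11 of the 19 were called with higher expression in the DVC and 3 with higher expression in the CeA. Of all genes 43.1% and 29.2% were called in these directions. Among the 11 was Fosl1, at 1.27 ± 0.47 cycles (SE), whose CeA values were too sparse for the test over time points. Those higher in the DVC included Nr4a2 by 2.07 ± 0.13 cycles, Jun by 1.18 ± 0.10 and Jund by 0.64 ± 0.16 (SE), and those higher in the CeA included Egr1 by 1.92 ± 0.17 cycles and Junb by 1.02 ± 0.21 (SE).

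Genes that mark cell types were set beside these results. Slc6a2, the noradrenaline transporter, was measured in 38 of 39 DVC samples and in 1 of 33 CeA samples, and neuronal, GABA, astrocyte and microglial markers were measured in both regions. In the DVC 2 of 10 markers passed the limma F-test over time points, beside 10.3% of all genes: the astrocyte marker Clu, with 0.96 cycles at ZT3 and 0.78 at ZT9, and Slc32a1, with 0.29 and -0.56. In the CeA 0 of 9 passed, beside 3.52% of all genes, and Clu had -0.14 and -0.27 and Slc32a1 0.10 and -0.22. The part of cell mixture in the Creb1 values was not tested.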

How the data were processed

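The authors deposited C_T values on a log2 scale, with failed reactions missing, and the same values after their quantile normalization, which limma's quantile normalization of all 72 samples reproduced to within 4.99e-09 cycles. Deposited group means and differences from ZT5 were not used. Samples were grouped by region, time point and animal from their labels. Replicates are separate animals, and the animal number in the labels pairs the regions (deviations of both regions of an animal had a median correlation of 0.14 over 32 animals). Genes with 2 or more values in every group were fitted with limma 3.58.1 in R 4.3.3, with Benjamini-Hochberg adjustment over all genes and a threshold of 0.05. Permutation tests (Python 3.11.15, numpy 2.4.6, scipy 1.17.1) enumerated all splits or drew 100000 and were 2-sided for differences and correlations. The smallest possible p was 1e-05 for those drawn. For the exact tests it was coarser, with 210 splits for ZT9 against ZT5 in the lower-numbered CeA animals. The procedures were tested on simulated data. Genes named beside Creb1 and Atf2 were the 3 with the highest r to each, and of the pathway list those past the threshold and up to 4 with the smallest p. Members, lists and tests were chosen with earlier results of these data known. Sample number and failed reactions set the precision, and depth in molecules is unknown. Primer sequences come from the study's assay list and genome sequences from RefSeq (GRCr8). An entry of the likeness lists is not reported here.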

Additional observations from a re-analysis of the deposited data

How the results depend on the processing

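The alternatives changed 1 choice at a time, except that the study's tests without adjustment changed test and adjustment together. Of 236 values compared 190 kept their direction and their side of the threshold. The cause of other changes was not tested. For Creb1 over time points in the DVC the limma adjusted p was 1.86e-05 without normalization, 0.00493 with median centring and 0.0153 with each sample's median C_T as covariate. The unadjusted one-way test of the study's methods gave p = 0.0231 (DVC) and 0.00811 (CeA), and 0.138 and 0.115 after Benjamini-Hochberg adjustment. For the Creb1 minus Atf2 difference over time points in the DVC the permutation p was 5.50e-04 without normalization and with median centring, and 0.0064 with the covariate, and in the CeA it was 0.122 in the higher-numbered animals alone. The Creb1 region difference was 0.069 cycles after median centring. The CeA call of Creb1 at ZT9 against ZT5 was lost without normalization (0.88 cycles, limma adjusted p of 0.393), without the samples with at least 10% failed reactions (0.92, 0.0577), in the higher-numbered animals (1.15, 0.0636), with the set of animals as a factor (0.80, 0.0645) and by the methods' t-test after Benjamini-Hochberg adjustment (0.92, 0.0909).

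The r of Creb1 with Atf2 in the DVC turned from -0.01 to 0.53 without normalization, 0.30 with median centring, 0.12 with the covariate, 0.0086 in the higher-numbered animals, 0.063 when the set of animals was removed too and 0.047 when time points were not removed. In the CeA it was 0.72 without normalization and -0.14 with median centring. Between regions the r of Creb1 was 0.051 without normalization, 0.038 with median centring, 0.22 in the higher-numbered animals, 0.23 with the covariate and 0.25 with the set of animals removed. That of Atf2 was 0.088 with the covariate.

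Atf2 differences that passed no test also changed sign. At ZT3 in the DVC they were -0.043 with median centring, -0.022 in the higher-numbered animals, -0.043 with the set of animals as a factor and -0.052 with the covariate. At ZT3 in the CeA they were 0.44 without normalization and 0.094 in the higher-numbered animals, and at ZT9 0.027 without normalization, 0.0045 with median centring and 0.22 in the higher-numbered animals. Between the sets of animals in the DVC the difference was -0.49 without normalization.

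Leaving out each sample in turn, the limma adjusted p of Creb1 over time points ran from 0.0251 (without ZT5 replicate 3) to 0.181 in the DVC and from 0.0359 to 0.140 in the CeA, where it passed without ZT5 replicate 3, ZT9 replicate 11 or ZT9 replicate 14. Creb1 at ZT9 against ZT5 in the DVC ran from 0.73 to 0.96 cycles and passed in 13 of 39 cases (without ZT3 replicate 1, ZT5 replicates 3, 5, 7 or 8, or ZT9 replicates 3, 9, 10, 11, 12, 13, 14 or 15, with a limma adjusted p down to 0.0139), and in the CeA from 0.82 to 1.02 and failed in 10 of 33, without ZT5 replicates 10, 13, 15, 17 or 18 or ZT9 replicates 1, 7, 12, 13 or 15. Atf2 ran from -0.084 to 0.16 cycles at ZT3 in the DVC, from -0.11 to 0.014 at ZT3 in the CeA and from -0.092 to 0.057 at ZT9 in the CeA. The permutation p of the difference between the genes in the DVC ran from 0.0467 to 0.160, passing without ZT5 replicate 3 or 7. The r of the genes in the DVC ran from -0.10 to 0.082. Between regions r ran from 0.36 to 0.51 for Creb1 and from 0.33 to 0.46 for Atf2, with an unadjusted permutation p above 0.05 without ZT5 replicates 3 or 18 or ZT9 replicates 1 or 14 for Creb1, and without ZT3 replicate 7, ZT5 replicate 17 or ZT9 replicate 11 for Atf2.

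With a replicate block for the animal the region difference was 0.53 cycles for Creb1 and 0.56 for Atf2, and 0.42 and 0.54 as a fixed block in animals with both regions. Replicate numbers repeat across time points but name other animals, and their deviations had median correlations between -0.08 and 0.05. A replicate block for that number gave Creb1 an adjusted p of 0.121 (DVC) and 0.0616 (CeA) and changed no call. Creb1 lies near the top of the C_T range, where reactions failed in some samples, so restricting to complete genes gave it no value.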
